A study of Mus musculus with 28 samples.

Results

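The comparison described here sets hippocampi of mice given any human plasma against hippocampi of mice given phosphate-buffered saline (PBS), the vehicle. Every gene with a symbol in the deposited expression table was taken, with 1 row per symbol. Of 41345 rows, 23410 carried a symbol, naming 22256 genes, and 15781 of these were bright enough to test. The emphasis is on differences that cord, young and old plasma had in common.

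All 28 arrays came from aged NSG mice, an immunodeficient strain without mature T, B and natural killer cells, with a mean age of 14 months. Each mouse had 6 intravenous injections before its hippocampi were dissected, and total RNA was hybridised to whole-transcript arrays. The 4 groups were PBS, human cord plasma (plasma from umbilical cord blood), human young plasma and human old plasma, with 7 arrays each. The labels do not say whether each array is a separate mouse, so p-values measure only the spread between these arrays. Because NSG mice lack T and B cells, they mount no adaptive immune response to human protein. They keep myeloid cells and lack haemolytic complement.

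The design lets differences common to the 3 plasma groups be set beside differences that vary with the age of the donor. A gene that answers to plasma itself would differ from PBS in all 3 plasma groups. The reverse does not follow, since all 3 comparisons use the same PBS arrays and no group was given another injected protein. Blood-borne factors reach the hippocampus through the endothelium, the choroid plexus and the meninges, and neurons answer to activity and hormones by inducing immediate early genes and shifting clock genes. Textbook roles of each gene are given below as background.

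Levels of some hippocampal neuron genes are described first. Mean levels were 8.68 log2 units for Prox1, a dentate granule cell factor, 9.91 for Wfs1, a CA1 marker, and 9.47 for Neurod6, a pyramidal neuron factor. These genes are members of longer lists, whose means in PBS were 7.75 for 13 dentate markers and 8.33 for 16 CA markers. They describe the tissue and do not test its label. Levels here are log2 intensities, averaged over 28 arrays, and cannot be compared between genes as amounts of RNA. Markers of neighbouring tissue were present at levels that varied between arrays. The mean of 16 choroid plexus markers ran from 5.88 to 8.04 in PBS arrays and from 5.77 to 8.37 in plasma arrays. In bulk tissue, fewer cells of a type and less RNA per cell cannot be told apart.

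Of 15781 genes, 3 passed an adjusted p under 0.05 when the 3 plasma means were averaged and set against PBS, which is 0.019% of those tested. Adap1 and Mansc1 rose and Olfr596 fell. Differences in the whole set were small. The median over all genes was 0.0023 log2 units, 5% of genes lay below -0.126 and 5% above 0.126, and 355 genes differed by at least 0.2 in either direction. Without a correction for multiple tests, 1951 genes (12.4%) had a p under 0.05, of which 1189 (7.53%) were higher and 762 (4.83%) lower after plasma. That excess of higher genes depended on how arrays were scaled: genes above 0 made up 60.9% of the 1951, but 37.6% once each array was centred on the median of the genes tested and 82.1% once it was centred on the median of every row. The direction of a small difference is therefore relative to the scaling, and the directions below hold under the deposited scaling.

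**Figure D1:**
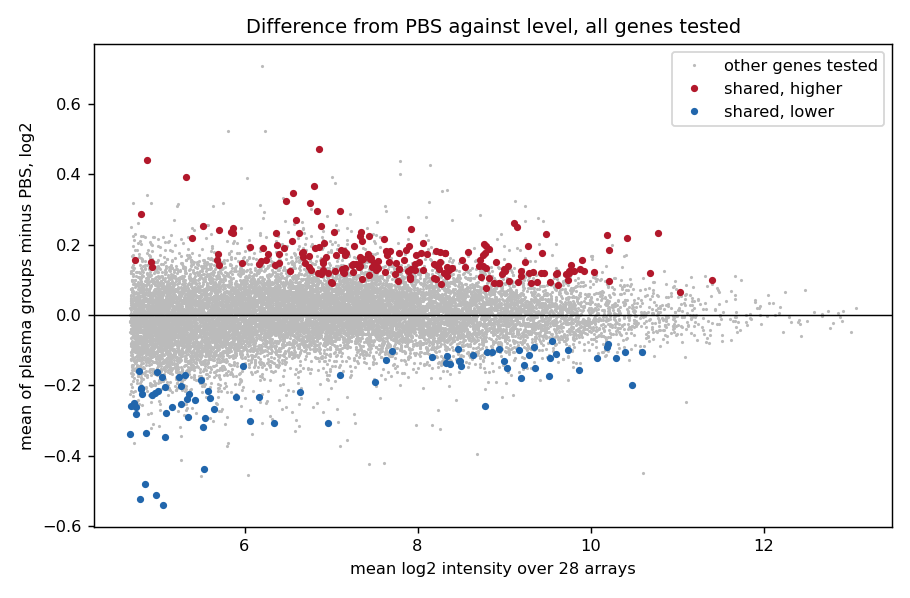
Difference between the mean of the 3 plasma groups and PBS (vertical, log2) against mean level (horizontal, log2 intensity) for the 15781 genes tested. Coloured points are the 287 genes with the same sign and an unadjusted p under 0.05 in each plasma group. Shared higher genes lie mostly among bright genes and shared lower genes lie at both ends.

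Adap1 was the gene whose plasma and PBS arrays did not overlap. Adap1 encodes a brain-enriched protein that binds phosphoinositides and regulates Arf6 GTPase. In PBS, its lowest, median and highest values were 8.54, 8.62 and 8.69. They were 8.70, 8.75 and 8.90 after cord plasma, 8.74, 8.82 and 8.93 after young plasma, and 8.76, 8.83 and 9.04 after old plasma. All 21 plasma arrays lay above all 7 PBS arrays, the only gene tested for which this held (0.00634% of genes). The groups nearly met: the highest PBS array was at 8.6948 and the lowest plasma array at 8.6952. No gene was free of overlap once arrays were centred on the median of the genes tested. The difference was 0.20 ± 0.036 (SE, n = 21 and 7 arrays), a rise of 15.1%, with a limma adjusted p of 0.0449. It was 0.14 for cord, 0.22 for young and 0.25 for old plasma. With the mean of the cortex markers as a covariate, the difference was 0.18 and the call was lost (limma adjusted p = 0.062, in a range of 0.0185 to 0.139 over the alternatives).

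Mansc1, which encodes a membrane protein with a MANSC domain, ran from 6.67 to 6.95 in PBS (median 6.88) and from 6.84 to 7.21 after plasma (median 7.11). Of the 21 plasma arrays, 19 lay above every PBS array, so the groups overlapped at the edge. The rise was 0.24 ± 0.042 log2 units (limma adjusted p = 0.0449), or 0.23, 0.27 and 0.21 for cord, young and old plasma.

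Olfr596, an olfactory receptor gene, lay close to the detection floor, with a mean level of 4.79 against a filter value of 4.68. Its mean was 5.18 in PBS and 4.66 over the plasma groups, under the filter, so it was tested only because PBS was high, and a gene that passes in this way has to differ. It ran from 4.75 to 5.57 in PBS (median 5.20) and from 4.29 to 5.01 after plasma (median 4.66). All 21 plasma arrays lay below the PBS median and 13 lay below every PBS array. The fall was -0.52 ± 0.097 log2 units, with a limma adjusted p of 0.0488. These 3 calls were narrow: leaving out a single array moved the number of genes past the threshold between 0 and 42, and the highest count came without PBS replicate 1. None of the 3 passed with arrays centred on the median of the genes tested, or when dim genes were kept in the test.

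The promoter of Adap1 is printed because Adap1 was the only gene whose groups did not overlap under the deposited scaling. Promoters of Suox and Jade1, named below, are shown because each holds one of the motifs searched for, set in capitals. The window is 250 bases before to 50 bases after the transcription start, from RefSeq on build GRCm38.p6. Adap1 lies on the minus strand at chr5:139325415-139325714, where 79.0% of bases are G or C and there are 51 CpG pairs. Suox lies on the minus strand at chr10:128673869-128674168 and Jade1 on the plus strand at chr3:41564630-41564929.
Adap1: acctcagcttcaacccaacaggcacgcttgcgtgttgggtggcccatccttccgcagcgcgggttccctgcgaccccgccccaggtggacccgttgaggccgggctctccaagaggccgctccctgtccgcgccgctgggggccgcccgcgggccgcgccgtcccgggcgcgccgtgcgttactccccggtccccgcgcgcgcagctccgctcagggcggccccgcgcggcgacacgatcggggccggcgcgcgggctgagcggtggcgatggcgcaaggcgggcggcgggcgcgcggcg
Suox: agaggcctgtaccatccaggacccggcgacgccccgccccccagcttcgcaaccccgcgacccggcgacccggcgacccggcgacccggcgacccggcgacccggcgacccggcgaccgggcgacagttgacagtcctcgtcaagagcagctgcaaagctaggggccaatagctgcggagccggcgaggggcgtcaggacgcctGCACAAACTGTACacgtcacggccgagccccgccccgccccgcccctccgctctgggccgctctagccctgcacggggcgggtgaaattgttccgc
Jade1: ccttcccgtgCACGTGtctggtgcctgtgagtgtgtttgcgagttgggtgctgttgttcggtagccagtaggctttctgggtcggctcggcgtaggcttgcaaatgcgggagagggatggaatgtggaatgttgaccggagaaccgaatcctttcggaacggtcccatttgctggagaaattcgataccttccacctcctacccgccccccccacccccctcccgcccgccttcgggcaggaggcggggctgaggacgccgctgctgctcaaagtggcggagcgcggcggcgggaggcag

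Of 29 genes named for their p-values, 21 had a promoter in the reference table. The E-box CACGTG, the letters bound by clock and Myc family factors, was present in 3 of them (Jade1, Scaper and Bex3, the current symbol of Ngfrap1), against 9.33% of 15283 promoters of tested genes and 7.15% of 32851 promoters in all. A glucocorticoid response element was present in 1 (Suox), against 0.366% of promoters of tested genes. Neither the cAMP response element TGACGTCA nor the D-box TTACGTAA nor a CArG box was found in the 21. A gene was counted if any of its promoters held the motif, while the percentages are over single promoters. The counts and percentages are therefore not of the same unit. Both strands were searched, and a match is only a match of letters.

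A wider set was made of genes whose difference had the same sign and an unadjusted p under 0.05 in each of the 3 plasma groups. It held 287 genes (1.82%), with 204 higher (1.29%) and 83 lower (0.526%) after plasma. The 3 comparisons use the same 7 PBS arrays, so a PBS array that happens to lie high or low moves all 3 at once, and being shared is not 3 independent findings. The mean over the plasma arrays was under the filter for 5 of the 83 lower genes, and the mean over PBS for 3 of the 204 higher genes, so these too were tested only through the group where they were high. The balance of the set depended on scaling as well: 84 genes were higher and 145 lower with arrays centred on the median of the genes tested, and 295 higher and 38 lower when centred over every row. Membership changed too: 148 of the 287 stayed shared under the first centring and 207 under the second. A size rule gave a different balance: 110 genes (0.697%) differed from PBS by at least 0.2 log2 units in each plasma group, 46 higher (0.291%) and 64 lower (0.406%). Shared higher genes were mostly bright: 108 of 204 (52.9%) lay in the brightest 33.3% of levels and 16 (7.84%) in the dimmest. Of the 83 shared lower genes, 40 (48.2%) lay in the dimmest 33.3%.

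**Figure D2:**
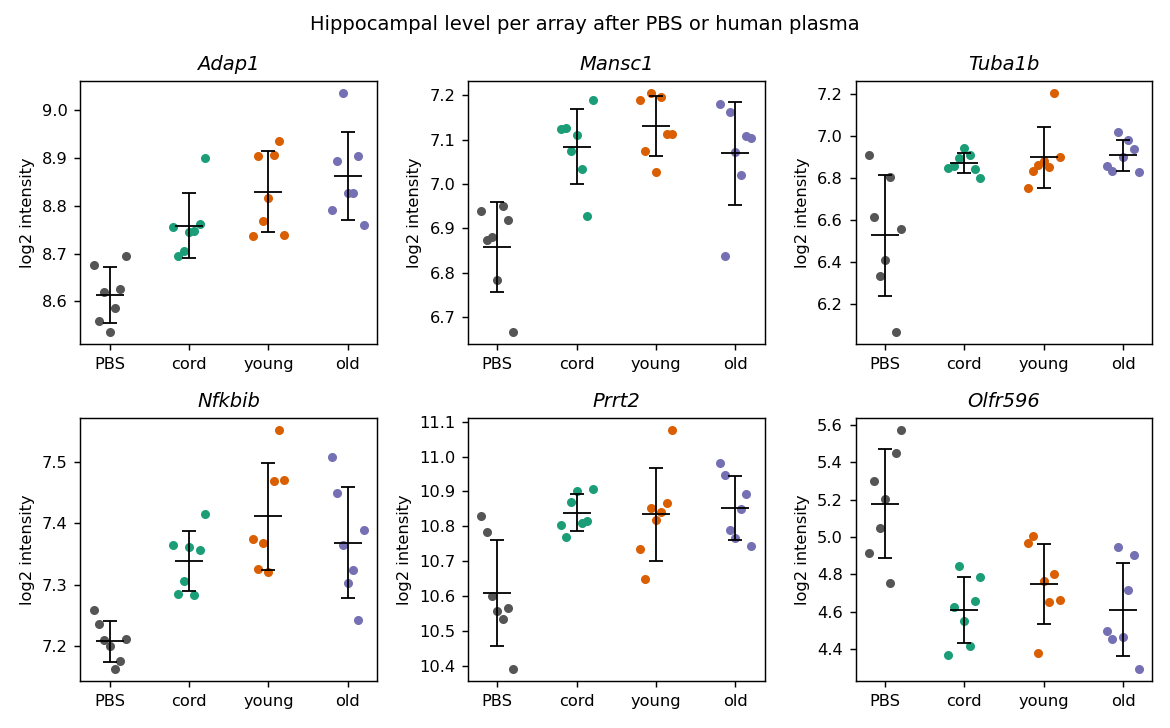
Level of 6 genes on each array (dots; vertical axis, log2 intensity) by group (horizontal axis), with mean and SD as bars, 7 arrays per group. Every plasma array exceeds every PBS array for Adap1, while the groups overlap for the other genes; PBS arrays are the more spread for Tuba1b.

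The higher shared genes with the smallest p-values, beside Adap1 and Mansc1, are described next, and none of them passed the adjusted threshold. Tuba1b, an alpha-tubulin, ran from 6.06 to 6.91 in PBS (median 6.56) and from 6.75 to 7.21 after plasma (median 6.86). The plasma arrays kept to a narrow band, and 6 of 21 exceeded all PBS arrays. Its difference was 0.37 ± 0.070 (limma adjusted p = 0.0571), or 0.34, 0.37 and 0.38 in cord, young and old plasma.

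Nfkbib, an inhibitor that holds NF-kB in the cytoplasm, ran from 7.16 to 7.26 in PBS (median 7.21). After plasma it had medians of 7.36, 7.38 and 7.37 in cord, young and old plasma, and 20 of 21 plasma arrays lay above all PBS arrays. The difference was 0.17 ± 0.034 (limma adjusted p = 0.0608).

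Prrt2, a presynaptic protein that acts in neurotransmitter release, ran from 10.39 to 10.83 in PBS and from 10.65 to 11.08 after plasma, a difference of 0.23 ± 0.049. Nat8l, which makes N-acetylaspartate in neurons, was higher by 0.23 ± 0.048. Lrrc8b, a subunit of volume-regulated anion channels, was higher by 0.20 ± 0.040, and 16 of 21 plasma arrays exceeded all PBS arrays. Suox, the mitochondrial enzyme that oxidises sulfite, was higher by 0.25 ± 0.054. Each had a limma adjusted p of 0.0608.

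The regulators in the same set were Zbtb8a, a zinc finger protein, at 0.25 ± 0.050, Jade1, a scaffold of a histone acetyltransferase complex, at 0.21 ± 0.043, and Zmiz2, a transcriptional co-regulator, at 0.16 ± 0.033. The remaining members were Pradc1 at 0.27 ± 0.054, Rnf39 at 0.30 ± 0.063 and Fam131b at 0.18 ± 0.038. Jade1 was the member in which the plasma groups differed most, at 0.24, 0.27 and 0.11 for cord, young and old plasma (F-test unadjusted p = 0.014).

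The lower shared genes were led by Exoc3l, related to a subunit of the exocyst, which ran from 5.38 to 5.85 in PBS (median 5.67) and had medians of 5.36, 5.43 and 5.32 after cord, young and old plasma. Of 21 plasma arrays, 12 lay below all PBS arrays. Its difference was -0.24 ± 0.050 with a limma adjusted p of 0.0608.

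Cxcr2, a chemokine receptor of neutrophils, differed by -0.35 ± 0.082 (limma adjusted p = 0.11), and 17 of 21 plasma arrays lay below all PBS arrays. Its level was low, at 5.08, and the second row of the gene on the array differed by -0.03. Of 7 neutrophil and monocyte markers tested, 6 were below 0 and 1 (Cxcr2) had a lower p under 0.05, against 4.83% of all genes. The mean over the list ran from 5.32 to 5.91 in PBS and from 5.23 to 5.55 after plasma. The part of blood cells in the Cxcr2 difference was not tested.

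Some brighter lower genes have housekeeping or structural roles. Mtch2, an outer mitochondrial membrane protein, differed by -0.17 ± 0.041, and 16 of 21 plasma arrays lay below all PBS arrays. Kpnb1, the importin beta that carries proteins into the nucleus, differed by -0.15 ± 0.037, and its other row by -0.07. Syne1, a giant protein that links the nucleus to the cytoskeleton, differed by -0.18 ± 0.038 on its brightest row, while its 7 other rows ran from -0.11 to 0.05. Scaper, an endoplasmic reticulum protein that binds cyclin A, differed by -0.11 ± 0.027.

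The other lower members, all with limma adjusted p between 0.102 and 0.151, were Fhod1, a formin that acts on actin, Bdkrb1, the inducible bradykinin receptor, Cracr2b, a regulator of calcium release-activated channels, Bhlhe23 and Tlx2, transcription factors, Ngfrap1, Tmem139 and Prr19. Bdkrb1 differed by -0.25 and Cracr2b by -0.22.

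**Figure D3:**
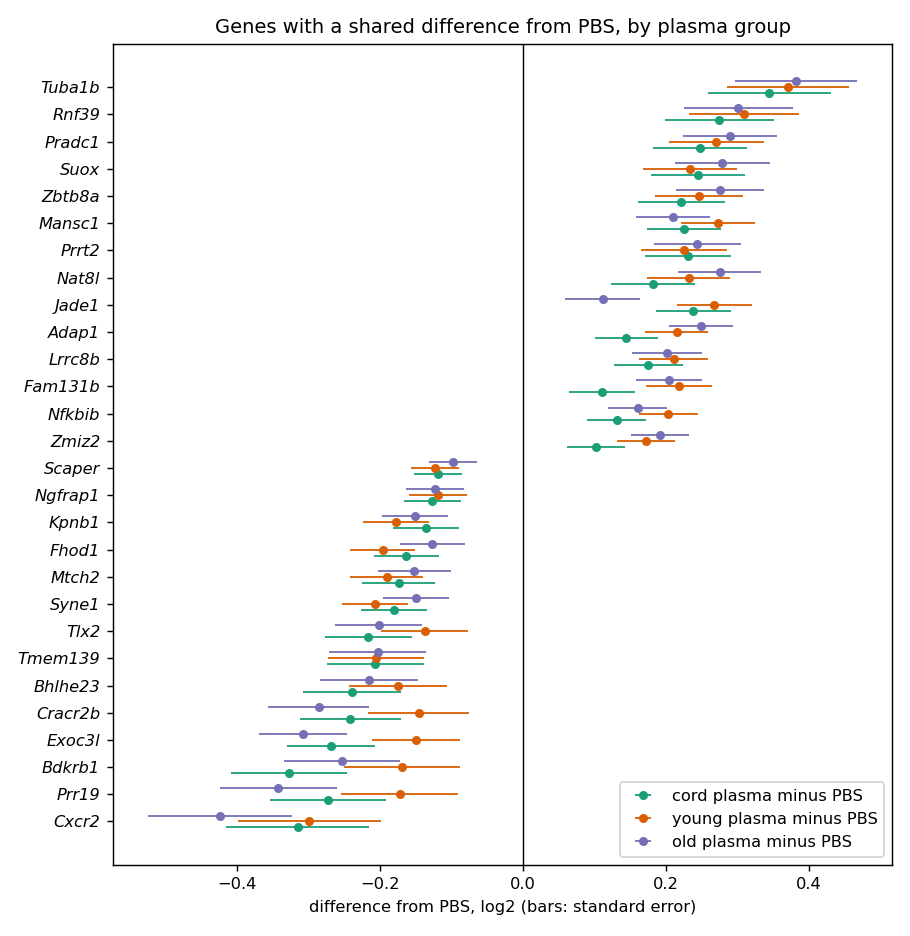
Difference from PBS (horizontal axis, log2) of the 28 shared genes with the smallest p-values, 14 higher and 14 lower, in each plasma group with its SE. Each gene lies on the same side of 0 in all 3 groups, which its choice requires, and Jade1 is among those whose groups are widest apart.

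Of the 83 lower shared genes, 8 (9.64%) were microRNA genes. Among all 15781 genes tested, 133 were microRNA genes, which together with 53 small nucleolar RNA genes made up 1.18%. The 8 were Mir669a-1, Mir1198, Mir3089, Mir669h, Mir466b-2, Mir1970, Mir181c and Mir694, named after their values were seen. MicroRNAs repress messenger RNAs through bases 2 to 8, the seed. Of 133 microRNA genes tested, 26 (19.5%) had a lower unadjusted p under 0.05 against 4.83% of all genes, and 11 a higher one. Most lie near the floor, with a median level of 5.53, and whether the labelling kit captures the mature strand is not given in the labels. The mature sequences below are printed to show that the seeds, in capitals, differ between the genes found in the reference (RefSeq, GRCm38.p6).
mmu-miR-1198-5p: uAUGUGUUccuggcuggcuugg
mmu-miR-3089-5p: uGAGUUCAgggacagcgugucu
mmu-miR-1970: uGUGUCACuggggauaggcuuug
mmu-miR-181c-5p: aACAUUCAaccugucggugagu

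Mir1198 ran from 6.35 to 6.72 in PBS and from 5.98 to 6.66 after plasma, with 15 of 21 plasma arrays below all PBS arrays. The difference was -0.31 ± 0.076 (limma adjusted p = 0.118). Mir181c differed by -0.22 ± 0.068, while its relatives Mir181a-2 and Mir181d differed by -0.14 and -0.04, neither with a p under 0.05. Mir669a-1 differed by -0.44 ± 0.095 (limma adjusted p = 0.0686), Mir466b-2 by -0.54 and Mir669h by -0.51. These belong to families of near-identical copies, and the rows of relatives (Mir669a-3 at -0.09, Mir669j at 0.02, Mir466d at -0.02 and Mir466h at 0.25) did not run with them, so the values of single copies are uncertain.

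Immediate early genes, which neurons switch on within minutes of activity, were tested as a list of 35. Of these, 30 were above 0 and 5 below, 10 had a higher and 1 a lower unadjusted p under 0.05, and none passed the adjusted threshold. Over all genes, 7.53% were higher and 4.83% lower at that p. The median difference was 0.09, against 0.0023 for all genes, and 0.05 without PBS replicate 4. In cord, young and old plasma it was 0.13, 0.07 and 0.05. No member was shared by the rule.

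Npas4, a neuronal transcription factor induced by calcium, had the largest difference of all genes tested. It ran from 4.91 to 6.18 in PBS (median 5.81) and from 5.24 to 7.59 after plasma (median 6.52), and 14 of 21 plasma arrays exceeded all PBS arrays. The difference was 0.71 ± 0.238 (limma adjusted p = 0.213), or 0.89, 0.69 and 0.55 in cord, young and old plasma.

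Fos, the AP-1 subunit used to mark active neurons, ran from 5.65 to 6.10 in PBS (median 5.74) and from 5.41 to 7.15 after plasma, with 15 of 21 arrays above all PBS arrays. The difference was 0.52 ± 0.173 (limma adjusted p = 0.212). Dusp1, a phosphatase that ends MAP kinase signalling, differed by 0.40 ± 0.127, and Junb by 0.31 ± 0.097. Arc, which removes AMPA receptors from synapses, differed by 0.20 ± 0.211. Its difference was 0.31 without young plasma replicate 7 and 0.14 without PBS replicate 4. With the cortex markers as a covariate, Fos was 0.28, Npas4 0.45 and Arc 0.05. Egr1, an immediate early transcription factor, was 0.35 without this covariate and 0.15 with it. The part of tissue margins was not tested.

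Clock genes showed the highest list median among the 44 lists. Of 19, 15 were above 0, 8 had a higher and 0 a lower unadjusted p under 0.05 (7.53% and 4.83% over all genes), and the median was 0.11, with 0.07, 0.14 and 0.10 in cord, young and old plasma. Arntl, an activating subunit of the clock, was the only shared member. It ran from 8.06 to 8.23 in PBS and from 8.18 to 8.48 after plasma, and 15 of 21 arrays exceeded all PBS arrays. Its difference was 0.14 ± 0.033 (limma adjusted p = 0.102), or 0.12, 0.19 and 0.12.

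Per1, a repressor that also answers to activity and glucocorticoids, ran from 8.95 to 9.15 in PBS and had medians of 9.20, 9.37 and 9.19 after cord, young and old plasma. Its differences were 0.15, 0.47 and 0.18 (F-test among the plasma groups, unadjusted p = 0.013). Young plasma replicate 7 was high, at 10.30, with the next young array at 9.58. The difference over the 3 plasma groups was 0.27 with all arrays and 0.23 without that array. On young plasma replicate 7 the mean of 19 glucocorticoid response genes was also high, at 8.48, with the next young array at 7.78. Of those 19 genes, 1 had a higher and 0 a lower unadjusted p under 0.05. The part of glucocorticoids was not tested. Nr1d1, the repressor of Arntl, differed by 0.20 ± 0.060 and Bhlhe40 by 0.13 ± 0.044. Of 9 repressors of the loop, 8 were above 0 and 5 had a higher p under 0.05, against 7.53% of all genes. Of 6 activators, 3 were above and 3 below 0, and 1 had a higher p under 0.05. The difference between the roles was not tested. The 18 cortex markers, which mark tissue next to the hippocampus, had a mean that ran from 7.35 to 7.68 in PBS and from 7.30 to 7.93 after plasma. Of the 18, 6 had a higher p under 0.05, against 7.53% of all genes. Among the 6 was Rspo1 at 0.47 ± 0.121 (limma unadjusted p = 0.00055). By the shared rule, 2 of the 18 cortex markers were shared higher genes, against 1.29% of all genes. Rspo1 had the largest difference of all 204 shared higher genes. Time of day at dissection is not given, and neither its part nor that of cortex was tested.

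**Figure D4:**
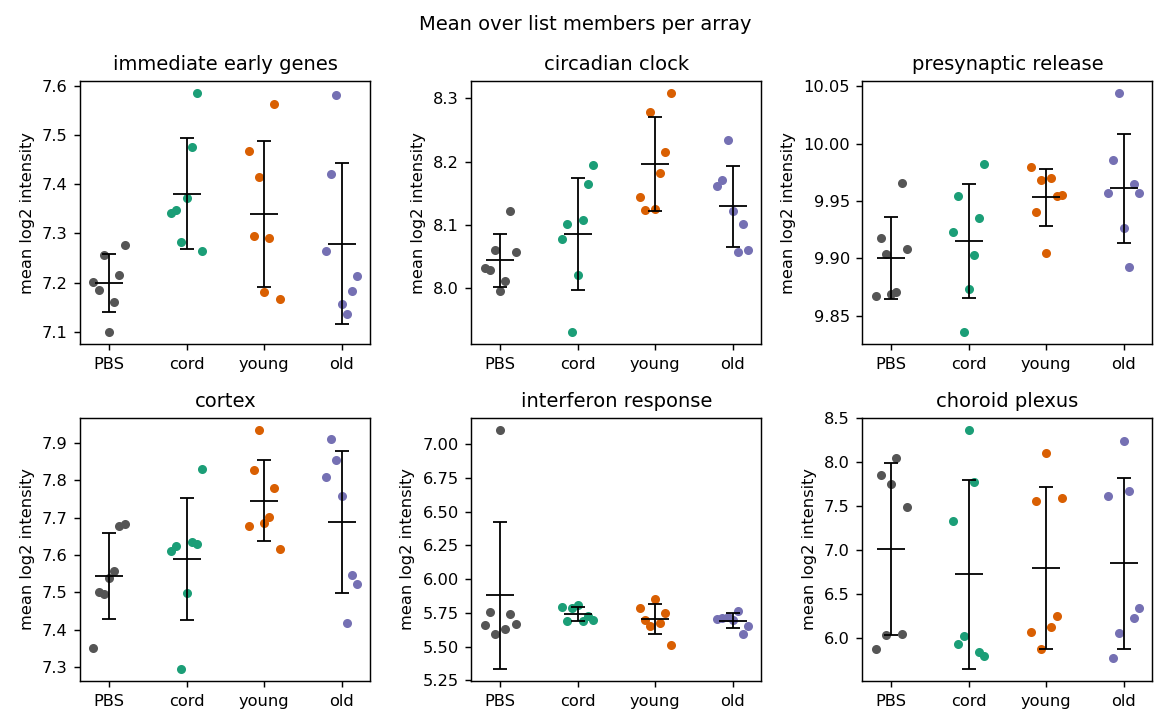
Mean log2 intensity over the members of 6 lists on each array (dots) by group, with mean and SD. Immediate early and clock lists are higher on several plasma arrays but overlap with PBS, and the interferon list has a single high PBS array.

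Genes of neuronal excitability were read against all genes tested, of which 51.3% were above 0, 7.53% had a higher and 4.83% a lower unadjusted p under 0.05. Of 33 potassium channel genes, 25 were above 0 and 8 had a higher and 0 a lower unadjusted p under 0.05 (median 0.04). Kcnh3, a voltage-gated channel of forebrain neurons, ran from 8.81 to 9.11 in PBS (median 8.95) and reached 9.56 after plasma (median 9.16), and 17 of 21 arrays exceeded all PBS arrays. The difference was 0.25 ± 0.057 (limma adjusted p = 0.102). Kcnj4, an inward rectifier, differed by 0.15 ± 0.046, and both genes were shared.

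Of 23 sodium and calcium channel genes, 6 had a higher p under 0.05 and 0 a lower one (median 0.02). Cacnb1, an auxiliary calcium channel subunit, differed by 0.13 ± 0.031, with 18 of 21 arrays above all PBS arrays. Scn4b, an auxiliary sodium channel subunit, differed by 0.33 ± 0.112. It is also among the 14 striatum markers tested, which had a median of 0.03, with 7 above and 7 below 0. Of 36 presynaptic genes, 27 were above 0 and 7 had a higher p under 0.05 (median 0.03). Syn3, a synaptic vesicle protein, ran from 7.57 to 7.93 in PBS and from 7.66 to 8.28 after plasma, a difference of 0.24 ± 0.064 in which 14 of 21 arrays exceeded all PBS arrays. Snap25, the membrane fusion protein, differed by 0.07 ± 0.024. Postsynaptic genes (1 of 22), glutamate receptors (1 of 26) and GABA receptors (1 higher and 1 lower of 15) had counts near or below the 7.53% and 4.83% seen over all genes.

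Of 12 tubulins, 5 had a higher p under 0.05, led by Tuba1b, and 1 a lower one, with a median of 0.05. Over all genes, 7.53% were higher and 4.83% lower at that p. Microtubule-associated proteins had 1 of 15.

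Over all genes, 4.83% were lower and 7.53% higher at an unadjusted p under 0.05, and lists of housekeeping complexes are set against these shares. Of 33 proteasome genes, 23 were below 0, 5 had a lower and 0 a higher p under 0.05 (median -0.02), and Psma2, a core subunit, differed by -0.13 ± 0.047. Of 37 cytosolic ribosomal proteins, 5 had a lower and 2 a higher p under 0.05. Rpl12 and Rps12 were shared, at -0.20 ± 0.056 and -0.26 ± 0.074, while Rps18 and Rps27 were at 0.15 and 0.20. Dimmer rows of Rpl12 and Rps12 differed by 0.05 each, and those of Rps18 by -0.04 and 0.05. The chaperonin, a folding chamber for actin and tubulin, had 7 of 7 members below 0, and 2 with a p under 0.05, with Cct4 at -0.10 ± 0.031 shared. Of 48 oxidative phosphorylation genes, 21 were above and 27 below 0, and 6 had a lower and 2 a higher p under 0.05. Complex IV and cytochrome c held 4 of the 6, out of 9 genes tested, while 7 of 10 genes of complexes II and III were above 0 and complex I had 10 above and 10 below. The peroxiredoxins Prdx1 and Prdx2, which remove peroxides, were shared at -0.15 ± 0.050 and -0.10 ± 0.030, whereas Gstp1, a glutathione transferase, was shared at 0.12 ± 0.045. None of these genes passed the adjusted threshold.

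**Figure D5:**
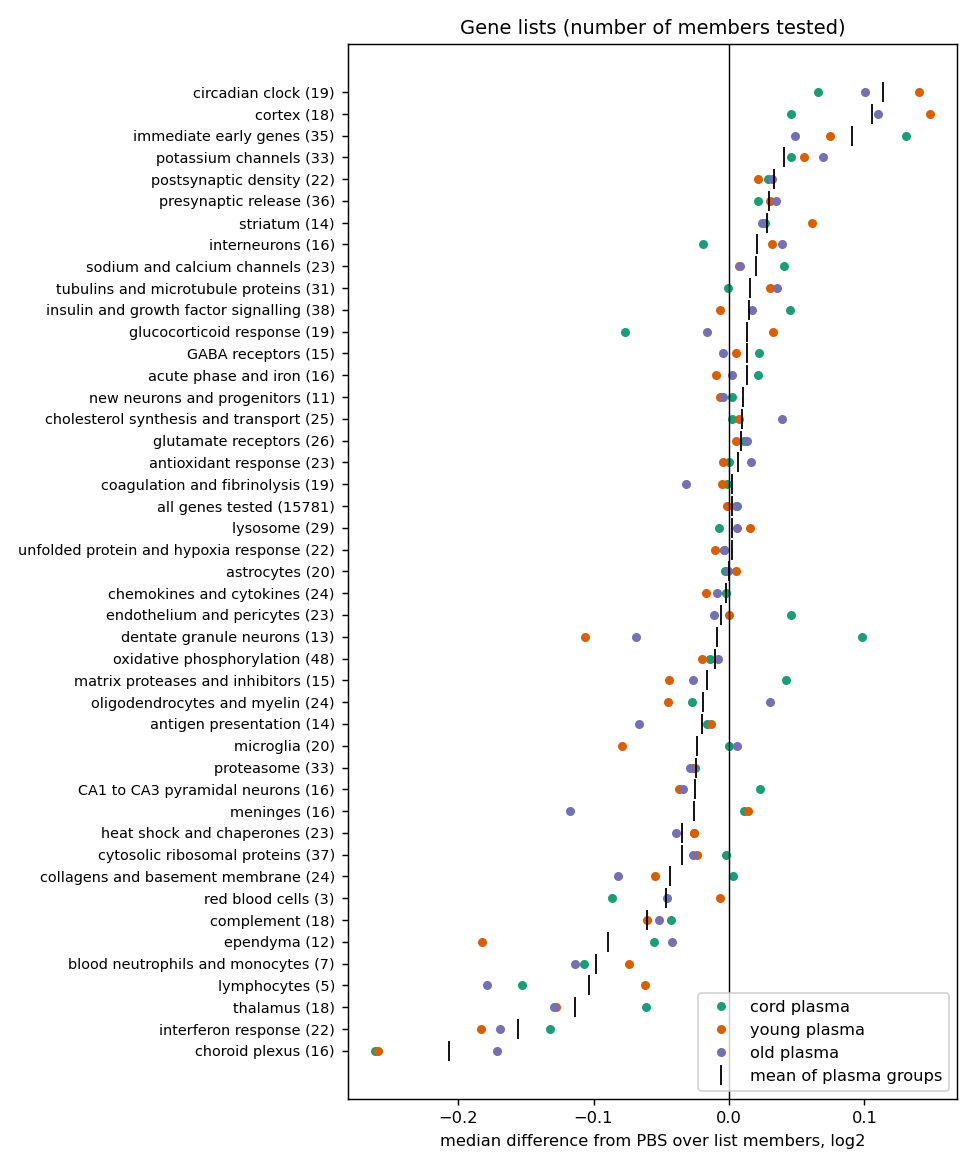
Median difference from PBS over the members of each list (horizontal axis, log2), for each plasma group (dots) and for the mean of the 3 (ticks), with the number of members tested. Clock, cortex and immediate early genes are at the high end and choroid plexus, interferon and thalamus genes at the low end, of which the interferon and thalamus medians are above 0 without PBS replicate 4 and 6, respectively.

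Of 22 interferon response genes, 21 were below 0 (median -0.16) and 2 had a lower p under 0.05, against 4.83% of all genes. Among the 2 was Oasl1, a member of the oligoadenylate synthetase-like family, at -0.14 ± 0.060. The list mean was 7.11 in PBS replicate 4, against 5.51 to 5.85 after plasma. Without that array, the list median was 0.05. B2m, an invariant chain of class I molecules and an interferon target, differed by -0.05 with all arrays and by 0.10 without replicate 4.

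Choroid plexus markers had a median of -0.21, with 15 of 16 below 0, but 0 with a p under 0.05, and the list mean had an SD of 0.97 among PBS arrays. Leaving out 1 PBS array moved the median between -0.38 (without PBS replicate 1) and -0.03 (without PBS replicate 5). List medians were not computed without single plasma arrays. Thalamus markers had a median of -0.11 with 2 of 18 below a p of 0.05, and their list mean was 7.86 on PBS replicate 6, the highest value of the group. Without that array, the thalamus median was 0.03. Microglia (3 of 20 lower), endothelium and pericytes (1 of 23 higher, Pdgfrb at 0.17 ± 0.050), astrocytes (0 of 20) and complement (2 of 18 lower) are set against 7.53% higher and 4.83% lower over all genes. Lymphocyte markers, which NSG mice should lack, were dim and mostly under the filter, with 5 of 15 on the array tested.

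Genes named in studies of blood and the brain stood as follows. Timp2, an inhibitor of matrix proteases, differed by -0.09 ± 0.097. Its difference was -0.20 without PBS replicate 1, in which it was low, and -0.05 without PBS replicate 5. Bdnf differed by 0.03 ± 0.055. Camk2a, a kinase of plasticity, differed by 0.04 ± 0.028. Dcx, of new neurons, differed by 0.01 ± 0.096, Gfap, of astrocytes, by -0.02 ± 0.051, and Aif1, of microglia, by -0.0025 ± 0.043. None had an unadjusted p under 0.05. Csf2 lay under the filter, at a mean of 2.63.

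Cord, young and old plasma means were also compared with each other, with PBS arrays entering only the estimate of the spread. The F-test called 1 gene, 1810008I18Rik (limma adjusted p = 0.0195, 0.00634% of genes), with differences from PBS of -0.18, 0.07 and -0.33 for cord, young and old plasma. Unadjusted, 968 genes (6.13%) had an F-test p under 0.05. Against PBS singly, 1380 genes (8.74%) had an unadjusted p under 0.05 with cord, 1764 (11.2%) with young and 1700 (10.8%) with old plasma, and 0 passed limma's adjusted threshold in each.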

How the data were processed

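The authors' deposited values are log2 expression levels; the submitters' processing notes name RMA, and no version; the array labels name whole-transcript target preparation. Their deposited table of group means differed from means of the log2 values by at most 8.6e-09. The probe design, and the genome build behind the rows, are not stated in the labels or file headers. Array intensities are not read counts, and precision is limited by the number of arrays. Rows without a symbol (17935 of 41345) and genes with a mean under 4.68 log2 units (the 30th percentile of named rows) were left out, and 26 symbols altered to dates were restored. For a gene with several rows the row with the highest mean was used. Symbols were matched to RefSeq (20597 current, 972 by synonym).

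limma 3.58.1 in R 4.3.3 fitted 4 group means over 28 arrays, with eBayes and Benjamini-Hochberg adjustment over 15781 genes. The contrast is the equal-weight mean of the 3 plasma groups minus PBS. The F-test compared the plasma means only, with the spread estimated over all 28 arrays. The fit was tested on simulated data. Named genes are those past an adjusted p of 0.05, the 14 shared genes per direction with the smallest p (predicted, olfactory, microRNA and small nucleolar names excluded), up to 4 genes per list, F-test genes, and 14 genes of prior interest. Genes and lists were chosen with earlier results of these data known. Same-numbered samples were checked for pairing, and alternatives varied the filter, rows, scaling, eBayes settings, array weights, block, covariates and left-out arrays. The values of 1 gene are not reported here.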

Additional observations from a re-analysis of the deposited data

Results flagged for a closer look

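Single arrays that stood apart from the other 6 of their group by Dixon's rule were found in 20 of 192 groups of values examined, where chance alone flags about 5% of groups. Cord plasma replicate 7 was high for Adap1 (8.90), Zbtb8a (6.13) and Lrrc8b (9.49). Cord plasma replicate 3 was low for Zmiz2 (9.75), Scaper (8.50) and Npas4 (5.87). Young plasma replicate 7 was low for Dcx (5.43), Aif1 (5.52) and Arc (7.59) and high for Per1 (10.30). Young plasma replicate 6 was high for Tuba1b (7.21). Old plasma replicate 6 was low for Zbtb8a (5.65) and replicate 3 high for Nat8l (9.81).

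Among PBS arrays, replicate 5 was low for Prr19 (4.53) and Tmem139 (4.88), and replicate 1 low for Ngfrap1 (10.25) and Timp2 (9.24). Replicate 4 was high for B2m (10.82) and for the mean of the interferon list (7.11). Replicate 6 was high for the mean of the thalamus list (7.86).

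The gene 1810008I18Rik differed among the 3 plasma groups by an F-test (adjusted p = 0.0195); it is dim, with a mean level of 4.80. Causes of these single-array values were not tested.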

How the results depend on the processing

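The number of genes past the adjusted threshold (3) depended on the setting. It was 0 with no filter, 16 with a filter at the 50th percentile, 8 over every row, 1 after renewed quantile normalization, 0 with arrays centred on the median of the genes tested, 18 centred over every row (chosen after seeing the data), 13 with trend and robust eBayes, 11 with array weights, 7 with the 21 plasma arrays as 1 group, 0 with a replicate block, 11 with cortex markers as a covariate (2 of the 3, without Adap1), and 19 at an adjusted p under 0.10. It was 3 with choroid plexus markers and with the mean over rows. The share above 0 was 37.6% and 82.1% under the 2 centrings. Shared genes numbered 441 over every row and 110 when at least 0.2 was asked in each group. Of the 287 shared genes, those that stayed shared numbered 148 with centring on the genes tested and 172 with the cortex covariate. They numbered 272 with the mean over rows. Without 1 array, from 173 (without PBS replicate 6) to 266 (without young plasma replicate 2) stayed shared. The F-test count was 0 with the 50th percentile filter, renewed normalization, centring over every row, trend and robust, and the block. The count of non-overlapping genes was 0 with centring on the genes tested. Leaving out 1 array gave 0 to 42 genes past the threshold (42 without PBS replicate 1, 11 without PBS replicate 5, and 0 without any of PBS replicates 2, 3, 4, 6 and 7, cord plasma 1, 2, 4 and 5, young plasma 3, 4, 5 and 6, and old plasma 1, 4 and 7), 225 to 425 shared genes (425 without PBS replicate 1), 1614 to 2241 unadjusted, a share above 0 of 56.6% to 64.7%, and 0 to 1 by the F-test. Overlap was counted without single PBS arrays only, which gave 1 to 7 genes that did not overlap (7 without PBS replicate 1, 6 without PBS replicate 2). Small differences turned sign: Aif1 to 0.0122 (renewed normalization), 0.0113 (cortex covariate) and 0.0154 (centred over every row), Dcx to -0.00508 (centred), -0.12 (cortex) and -0.0037 (choroid), and Gfap to 0.0405 (cortex). Without 1 array the ranges were -0.0261 to 0.0215 for Aif1, -0.0540 to 0.0595 for Dcx, -0.0507 to 0.0095 for Gfap and -0.0914 to 0.10 for B2m. Replicate numbers gave 12 of 42 pairs a correlation over 0.1 (median r 0.0198), so the numbers were not taken as pairs. All 6 pairs of number 4 were over 0.1, however (0.116 to 0.414), its 4 arrays were all high for choroid plexus markers and those of numbers 3 and 6 low, and what same-numbered arrays share is not stated in the labels. The cause of these changes was not tested.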

Other observations

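In the shared set, PBS arrays did not contribute evenly. For the 204 higher genes, PBS replicate 1 was the highest PBS array in 64 and replicate 2 in 56, while replicate 6 was the lowest in 60. For the 83 lower genes, PBS replicate 1 was the lowest PBS array in 26 and replicate 5 in 22. Small nucleolar RNA genes, in contrast to microRNA genes, had 2 of 53 lower with an unadjusted p under 0.05 and 4 higher. Over all genes, 4.83% were lower and 7.53% higher at that p. On the whole array, 23211 rows with and without a symbol were tested together, and 8 passed the adjusted threshold, of which 5 have no symbol.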
